A study of Mus musculus with 16 samples.

Results

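Solute carriers are the membrane proteins that move sugars, amino acids, ions, metals, nucleotides and metabolites across the plasma membrane and the membranes of organelles. The genes described here have a symbol made of Slc, a family number, a letter and a member number, and were kept when their signal was above 135 on at least 3 of 16 microarrays. The genes were thus chosen by the measured signals of all 16 arrays, tumours and glands alike. Of 250 such genes named by a single symbol on the array, 114 passed and 136 did not; Slc2a1, Slc2a4, Slc16a1 and Slc16a3, also solute carriers, were not included. Of the 114, 47 were above 135 on all 16 arrays, 95 on arrays of both tumour and gland, 18 only on tumour arrays and 1, Slc25a42, only on gland arrays. Genes of these last 2 kinds could pass only through the tissue in which they were high. Some genes above 135 in both tissues, such as Slc24a3, Slc2a3 and Slc25a44, had too few tumours above it to pass without the glands. The counts over the 114 are thus descriptions. Just inside the level rule, the third-highest signals were 137.5 for Slc6a9, 138.5 for Slc35b4, 139.9 for Slc46a1 and 140.2 for Slc24a3. Just outside they were 127.9 for Slc25a23, 129.9 for Slc25a24, 131.4 for Slc9a8 and 132.3 for Slc25a38.

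The arrays held RNA from 7 mammary tumours of mice with the STAT5ca transgene, a constitutively active form of the transcription factor STAT5. A further 6 held tumours of mice with the STAT5Δ750 transgene, which lacks part of the C-terminus of STAT5, and 3 held normal mammary gland. All mice had the FVB/N background, and a tumour is called by its group and the number in its label. The stage of the glands, the age of the mice, the promoter of the transgenes and whether each array was a separate animal are not given in the labels, so p-values measure the spread between these arrays. Signals are the authors' MAS5 values, on a linear scale with an arbitrary unit, and changes are differences of mean log2(signal + 8), which understates the change of dim genes. Both tumour types were compared with the same 3 glands. In bulk tissue, fewer cells of a type and less RNA per cell cannot be told apart.

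Carriers of the Slc25 family sit mostly in the inner mitochondrial membrane and exchange ADP for ATP, and pass phosphate, carnitine esters, amino acids and cofactors. Families 1, 3, 6, 7 and 38 carry amino acids at the cell surface, where the heavy chain Slc3a2 brings light chains such as Slc7a5 to the membrane. Families 30 and 39 move zinc out of and into the cytosol, and family 35 carries activated sugars and sulphate donors into the Golgi. In the lactating gland, solute carriers supply glucose, amino acids, phosphate, zinc and iron to the milk.

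The 3 glands were close to each other, and 1 tumour stood apart. Over all 7296 genes that passed the same level rule, the mean correlation of an array with its group was 0.568 for tumour STAT5ca_177, 0.747 to 0.816 for the other STAT5ca tumours, 0.806 to 0.846 for STAT5Δ750 tumours and 0.939 to 0.959 for glands. Tumour STAT5ca_177 had a summed signal of 757 over 7 luminal epithelial markers, against 17770 to 26210 in the other STAT5ca tumours, and of 25700 over 7 macrophage markers, against 2176 to 6755. Its luminal markers were thus far below those of its group, while its basal epithelial marker sum of 1102 lay within the 335 to 2256 of the other STAT5ca tumours. The beta-actin ratio (signal of the 3' probe set over that of the 5' one, higher in degraded RNA) was 1.76 to 5.38 in STAT5ca tumours, 1.27 to 3.52 in STAT5Δ750 tumours and 1.07 to 1.25 in glands. It was higher in every tumour than in every gland. A fit with this ratio as a covariate thus cannot tell RNA quality apart from the difference between tumour and gland. Each of the 7 adipocyte markers tested fell in both tumour types, and of 10 muscle markers 10 fell in STAT5ca and 9 in STAT5Δ750 tumours. All 3 brown adipocyte, 6 T cell and 5 B cell markers tested fell in both types, as did 4 of 6 endothelial markers. Lep, Cidec, Ucp1, Cd3e, Cd2, Cd5, Cd28, Cd247, Blk and Kdr were above 135 only on gland arrays. They could pass the level rule only through the glands, so their falls are descriptions. Others, such as Cd3g and Ms4a1, had too few tumours above 135 to pass without the glands. The brown adipocyte markers Elovl3 and Ppargc1a were not tested. In STAT5ca tumours Elovl3 was at 9.3 to 91.6 and Ppargc1a at 11.0 to 111.6, against 15.2 to 59.2 and 104.0 to 162.6 in glands. Of 7 macrophage markers 1 rose and 1 fell in STAT5ca and 2 fell in STAT5Δ750 tumours, and of 7 luminal markers 1 and 2 rose. The part of cell makeup and RNA quality in the results below was not tested beyond the values given. Whether the Stat5a probe set reads the transgenes is not known here; Stat5a changed by -1.01 in STAT5ca and -1.35 in STAT5Δ750 tumours (adjusted p = 0.2 and 0.089).

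Against gland, 8 solute carriers were higher and 11 lower in STAT5ca tumours by limma at an adjusted p under 0.05, 16.7% of the 114, where 19.9% of all 7296 genes were called. The shares by direction were 7.02% higher, against a background of 7.94%, and 9.65% lower, against a background of 12.0%. In STAT5Δ750 tumours 5 were higher and 14 lower, again 16.7%, where 21.8% of all genes were called. There 4.39% were higher, against 8.87% of all genes, and 12.3% lower, against 13.0%. Neither share of solute carriers was above that of all genes. The median log2 change of the 114 was 0.13 in STAT5ca and 0.08 in STAT5Δ750 tumours, beside 0.02 and 0.00 for all genes. Every STAT5ca tumour was above every gland for 7 carriers (6.14%, against 7.88% of all genes) and below for 12 (10.5%, against 12.0%), 19 in all, beside 19.9% of all genes. In STAT5Δ750 tumours these counts were 8 (7.02%, against 16.2%) and 20 (17.5%, against 19.3%), 28 in all, beside 35.5%. Without the level rule, 7 of the 250 carriers were higher and 24 lower in STAT5ca tumours, 12.4%, where 15.8% of 12394 genes were called, 4.71% higher and 11.1% lower. In STAT5Δ750 tumours 6 were higher and 23 lower, 11.6%, where 16.6% of genes were called, 5.41% higher and 11.2% lower. With each array scaled to a common median, the STAT5ca split was 17 higher and 7 lower, in place of 8 and 11. The split over all genes moved likewise, from 579 higher and 874 lower of 7296 to 1208 and 573 of 7330. In all, 25 carriers changed in at least 1 tumour type, 3 rising in both and 10 falling in both. 89 passed in neither.

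**Figure D1:**
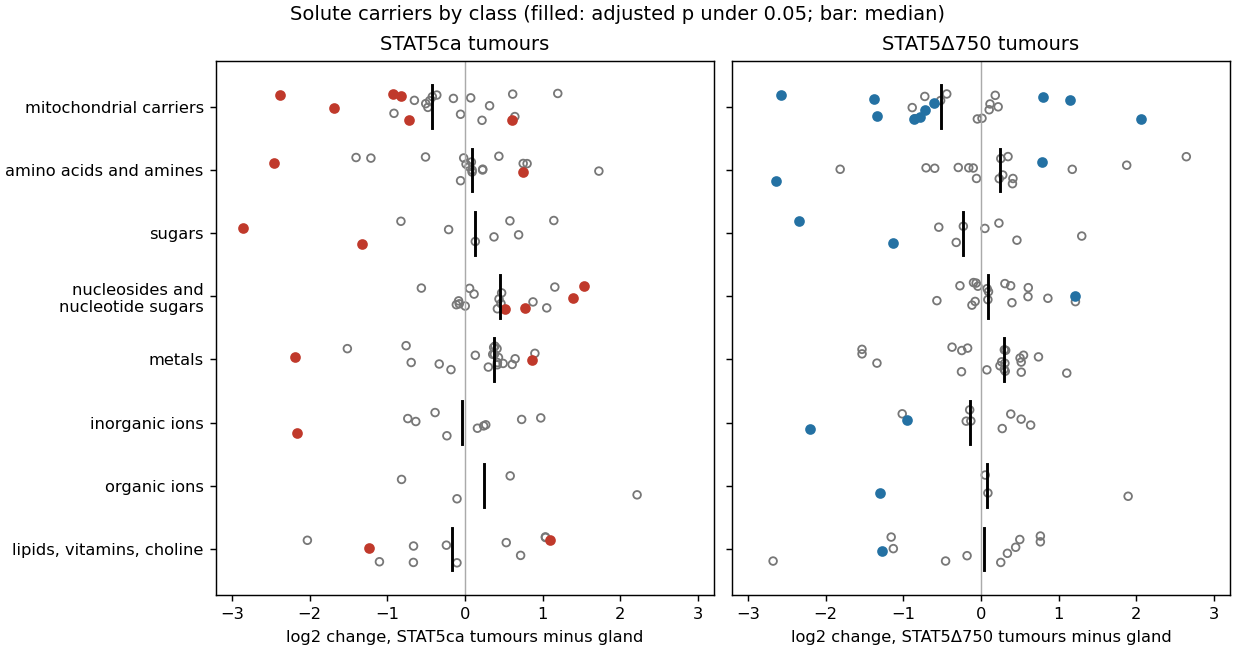
Log2 change against gland of 113 solute carriers by class, in 7 STAT5ca tumours (left) and 6 STAT5Δ750 tumours (right), each point a gene, filled where the adjusted p is under 0.05, with a bar at the class median. Mitochondrial carriers have the lowest class medians, -0.42 and -0.52, and the most filled points, 6 and 10. Slc66a2, which has no class, is not drawn.

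The classes, set by family number, differed in how many members changed, and these counts moved with the scaling. Of 21 mitochondrial (Slc25) carriers of 33 on the array, STAT5ca tumours had 1 rise and 5 falls, 28.6% of the class, and STAT5Δ750 tumours had 3 rises and 7 falls, 47.6%. The 93 other carriers had 7 rises and 6 falls in STAT5ca tumours, 14%, and in STAT5Δ750 tumours 2 rises and 7 falls, 9.68%. Of all genes, 19.9% and 21.8% were called. The median change of the mitochondrial class was -0.42 and -0.52, and stayed below 0 with each array scaled to a common median (-0.13 and -0.39) and under quantile normalization (-0.45 and -0.51). Relative to the median of all genes it was -0.44 and -0.53 under the common-median scaling, which gave 2 rises and 2 falls in STAT5ca and 3 rises and 4 falls in STAT5Δ750 tumours. That scaling gave 17 rises and 7 falls among 118 carriers and 1208 and 573 among 7330 genes in STAT5ca tumours. In STAT5Δ750 tumours it gave 6 and 10, and 785 and 641. The share called in the mitochondrial class was then no higher than that of all genes in STAT5ca tumours, and still higher in STAT5Δ750 tumours. The 18 carriers of nucleosides and nucleotide sugars had 4 rises and 0 falls with STAT5ca and 1 rise and 0 falls with STAT5Δ750, with medians of 0.45 and 0.09. The 21 metal carriers had medians of 0.38 and 0.30, with 1 rise and 1 fall in STAT5ca tumours and no call in STAT5Δ750 tumours. With a common median they had 4 rises and 1 fall in STAT5ca tumours, and the nucleoside and nucleotide sugar carriers 5 rises in STAT5ca and 2 in STAT5Δ750 tumours. Without STAT5ca_177 the metal carriers had 3 rises and 3 falls in STAT5ca and 2 falls in STAT5Δ750 tumours. The difference between classes was not tested.

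Among the 114 carriers past the level rule, the mitochondrial carriers Slc25a4 and Slc25a42 had the 2 smallest adjusted p in both tumour types; without that rule, Slc38a4 and Slc7a10, not described here, had smaller ones. Slc25a4, the ADP/ATP exchanger of heart and muscle, had signals of 1139 to 2007 (median 1812) in STAT5ca tumours and 1686 to 2614 (median 2045) in STAT5Δ750 tumours, against 4874, 5914 and 5183 in the glands. Every tumour lay below every gland. The log2 change was -1.69 ± 0.20 (SE; adjusted p = 4.38e-05) in STAT5ca and -1.37 ± 0.21 (adjusted p = 0.000416) in STAT5Δ750 tumours, folds of 3.23 and 2.59 lower on the log2(signal + 8) scale. The other 2 probe sets of Slc25a4 that passed the level rule gave -1.78 and -1.19 in STAT5ca and -1.51 and -0.99 in STAT5Δ750 tumours. Slc25a5, the ADP/ATP exchanger most used by dividing cells, moved the other way, with 2812 to 4044 (median 3720.0) in STAT5ca and 2896 to 5113 (median 4076) in STAT5Δ750 tumours, against 2455, 1968 and 2525 in the glands. Every tumour was above every gland, and the rise was 0.60 ± 0.19 (adjusted p = 0.0395) and 0.80 ± 0.20 (adjusted p = 0.0105). All 8 probe sets of Slc25a5 on the array gave changes above 0, from 0.49 to 0.84 in STAT5ca and from 0.65 to 1.07 in STAT5Δ750 tumours. The STAT5ca call was lost with the actin ratio as a covariate (adjusted p = 0.375) and in 8 of 16 fits without 1 array, at up to 0.222. Slc25a4 and Slc25a5 share much of their sequence, and probe sets whose names end in x_at, as both here do, can read related transcripts.

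Slc25a42, which carries coenzyme A into mitochondria, had 52 to 108 (median 60.4) in STAT5ca tumours and 28.6 to 122 (median 65.3) in STAT5Δ750 tumours, against 462, 422 and 276 in the glands. No tumour reached 135, so the gene passed the level rule through the 3 glands alone, and its changes are given as a description. They were -2.37 ± 0.35 (adjusted p = 0.000255) and -2.58 ± 0.36 (adjusted p = 0.00022). Slc25a20, the carnitine-acylcarnitine carrier that brings fatty acids to oxidation, had 377 to 1009 (median 481) in STAT5ca and 331 to 474 (median 394) in STAT5Δ750 tumours, against 1283, 1323 and 614 in the glands. STAT5ca tumours overlapped the glands, since tumour STAT5ca_123 was at 1009 and gland 6 at 614, while STAT5Δ750 tumours did not. The changes were -0.92 ± 0.29 (adjusted p = 0.0338) and -1.34 ± 0.29 (adjusted p = 0.00501), the first lost with the actin covariate (adjusted p = 0.0633) and with a common median (adjusted p = 0.186). The other probe set of Slc25a20 gave -1.35 and -1.48 (adjusted p = 0.00238 and 0.00167). The plasma membrane carnitine carrier, Slc22a5, fell by 1.30 in STAT5Δ750 tumours (adjusted p = 0.0238) and changed by -0.82 in STAT5ca tumours (adjusted p = 0.133), with no tumour of either type as high as a gland.

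Slc25a44, a carrier of branched-chain amino acids, was at 88.2 to 140.0 (median 102.5) in STAT5ca and 97.3 to 111 (median 108) in STAT5Δ750 tumours, against 181, 204.5 and 181 in the glands. Its changes were -0.72 ± 0.16 (adjusted p = 0.00447) and -0.78 ± 0.16 (adjusted p = 0.00313). Slc25a44 could not have passed the level rule without the glands, so its changes are given as a description. Slc25a22, a mitochondrial glutamate carrier, changed by -0.82 ± 0.21 (adjusted p = 0.0139) and -0.72 ± 0.22 (adjusted p = 0.0298). Tumours of both types lay below every gland for these 2 genes. Both Slc25a22 calls were lost with a common median (adjusted p = 0.177 and 0.167) and under quantile normalization (adjusted p = 0.0564 and 0.0687), and the STAT5Δ750 call in 6 of 16 fits without 1 array. The STAT5ca call of Slc25a44 was lost with a common median (adjusted p = 0.148). In STAT5Δ750 tumours, Slc25a46, a protein of the outer mitochondrial membrane, and Slc25a51, which carries NAD, fell by 0.86 and 0.60 (adjusted p = 0.0218 and 0.0423). They changed by -0.50 and -0.45 in STAT5ca tumours (adjusted p = 0.15 and 0.115). Slc25a51, with the highest adjusted p of the 19 STAT5Δ750 calls, lost the call in 11 of 16 fits without 1 array, and with a common median both it and Slc25a46 lost theirs (adjusted p = 0.177 and 0.1).

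Besides Slc25a5, 2 members of family 25 rose past the threshold in STAT5Δ750 tumours. Slc25a13, citrin, the aspartate-glutamate carrier of the urea cycle and malate-aspartate shuttle, had 115 to 359.6 (median 168.6) there, against 43.8, 15.1 and 64.8 in the glands, a change of 2.06 ± 0.65 (adjusted p = 0.0343), lost with the actin covariate (adjusted p = 0.0569). STAT5ca tumours ran from 8.3 to 209 (median 131), and the change of 1.19 ± 0.63 did not pass (adjusted p = 0.202). Without tumour STAT5ca_177, whose signal of 8.3 was the lowest of all 16 arrays, the STAT5ca change was 1.63 (adjusted p = 0.00706). On gland arrays Slc25a13 was never above 135, so it passed the level rule through tumours alone. Slc25a17, a carrier of the peroxisomal membrane, had 248.5 to 642.5 (median 389.5) in STAT5Δ750 tumours, against 188, 162 and 184 in the glands, and rose by 1.14 ± 0.34 (adjusted p = 0.026). In STAT5ca tumours its change of 0.64 ± 0.33 had an adjusted p of 0.188. The difference between tumour types passed for neither gene (adjusted p = 0.873 and 0.87).

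The Slc25 carriers that did not pass include abundant ones. Slc25a3, the phosphate carrier, had 3384 to 4469 (median 4398) in STAT5ca and 3126 to 5035 (median 4519) in STAT5Δ750 tumours, against 3587, 4618 and 4587 in the glands, with changes of -0.06 ± 0.18 and 0.01 ± 0.18. Slc25a37, mitoferrin 1, which brings iron into mitochondria, changed by -0.91 ± 0.31 (adjusted p = 0.0507) and -0.88 ± 0.32 (adjusted p = 0.0598). Without STAT5ca_177 these became -1.08 and -0.88 (adjusted p = 0.0058 and 0.019). Slc25a3, Slc25a46 and Slc25a51 were chosen after their values were seen.

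**Figure D2:**
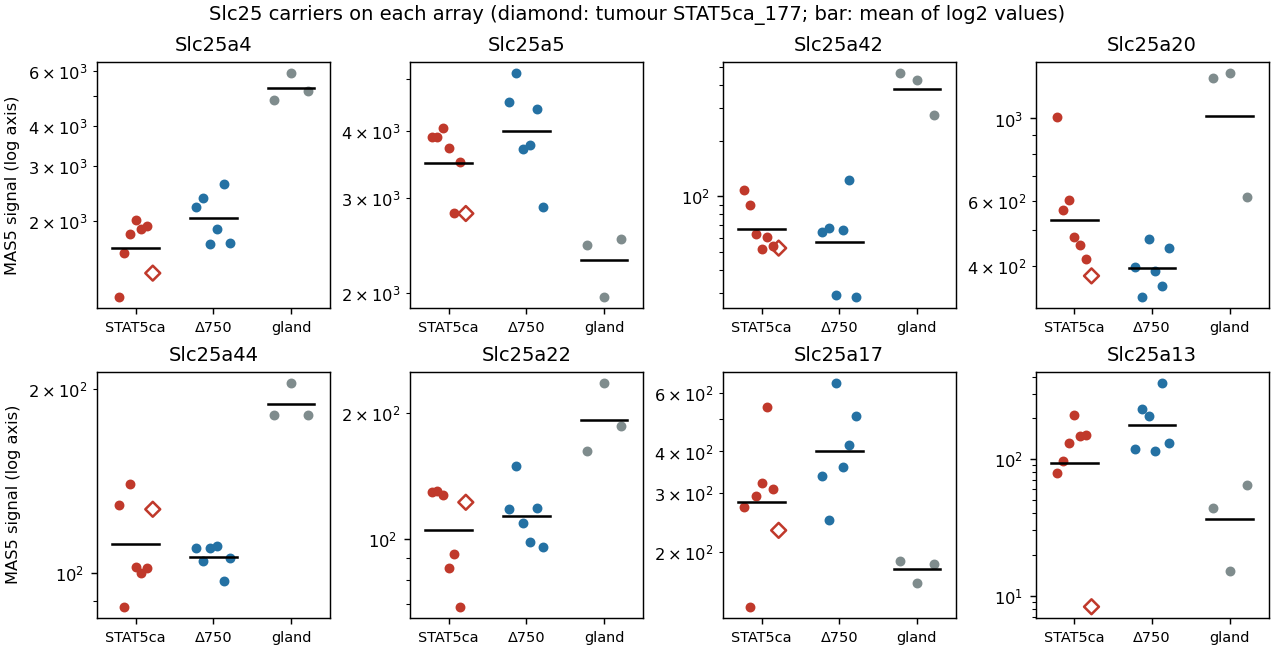
MAS5 signals (log axis) of 8 Slc25 carriers on each of 7 STAT5ca, 6 STAT5Δ750 and 3 gland arrays; points are arrays, the open diamond is tumour STAT5ca_177 and the bar is the mean of log2 values. Every tumour lies below every gland for Slc25a4, Slc25a42, Slc25a44 and Slc25a22, and above for Slc25a5.

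Muscle and fat markers were lower in the tumours than in the glands. The summed signal of 10 muscle markers was 129 to 7444 in STAT5ca tumours, 371 to 16370 in STAT5Δ750 tumours and 52120 to 63030 in glands. The sum of 8 adipocyte markers was 538 to 3698 and 881 to 2934 in the tumours and 15490 to 18290 in glands, and that of 5 brown adipocyte markers was 120 to 1070, 80.5 to 1163 and 3817 to 9208. Adiponectin (Adipoq) was at 0.8 to 198 in STAT5ca and 7.6 to 414 in STAT5Δ750 tumours, against 4505 to 5063 in glands. Tumour STAT5Δ750_178, with the highest muscle sum of any tumour, had the highest tumour signals of Slc25a4, 2614, and of Slc25a42, 122. Tumour STAT5ca_123, with the lowest muscle sum, 129, had the highest tumour signal of Slc25a20, 1009. Its brown adipocyte sum was 959 and its adipocyte sum 935, and those of STAT5Δ750_178 were 1163 and 2830. The part of these cells in the falls was not tested.

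The promoters of Slc25a4 and Slc25a42, which fell, and of Slc25a5, which rose, are shown because STAT5 binds the motif TTCNNNGAA, and GGGCGG is a common promoter motif, as is the CCAAT box. The sequences are the 250 bases before the RefSeq start on build GRCm38.p6, with every GGGCGG box and every box of the letters CCAAT, on either strand, in capitals.
Slc25a4, chr8:46211063-46211312, minus strand: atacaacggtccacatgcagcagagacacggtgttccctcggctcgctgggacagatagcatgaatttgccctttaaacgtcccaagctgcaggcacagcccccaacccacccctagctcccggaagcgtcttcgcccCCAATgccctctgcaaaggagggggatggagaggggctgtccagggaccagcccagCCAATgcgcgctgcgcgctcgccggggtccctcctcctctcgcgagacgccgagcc
Slc25a42, chr8:70212282-70212531, minus strand: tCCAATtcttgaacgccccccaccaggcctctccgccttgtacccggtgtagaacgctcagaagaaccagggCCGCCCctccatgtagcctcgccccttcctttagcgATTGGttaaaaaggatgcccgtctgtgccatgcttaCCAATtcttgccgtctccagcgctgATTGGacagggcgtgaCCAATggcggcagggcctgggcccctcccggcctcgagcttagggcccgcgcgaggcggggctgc
Slc25a5, chrX:36795347-36795596, plus strand: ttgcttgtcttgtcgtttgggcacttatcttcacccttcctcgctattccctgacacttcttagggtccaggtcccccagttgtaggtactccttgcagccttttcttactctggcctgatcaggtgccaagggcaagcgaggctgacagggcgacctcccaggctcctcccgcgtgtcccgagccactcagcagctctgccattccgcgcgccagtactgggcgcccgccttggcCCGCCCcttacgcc
The Slc25a4 window holds 2 CCAAT boxes and the Slc25a42 window holds 5, with 1 GGGCGG box in each of the Slc25a42 and Slc25a5 windows and no overlap between motifs. None of these 3 windows holds TTCNNNGAA, read on both strands. Windows were given for 89 of the 114 carriers, of which 5, or 5.62%, hold TTCNNNGAA, beside 7.16% of 5962 tested genes with a window. Of 18 changed carriers with a window, 0 hold it. GGGCGG was in 75.3% of the 89 and 65.6% of tested genes, and CCAAT in 40.4% and 40.5%. A match is only letters in this window, and their absence says nothing of STAT5 at these genes.

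Amino acid carriers moved in different directions. Slc1a5, the glutamine exchanger ASCT2, had 74.4 to 424 (median 268) in STAT5ca tumours and 98.5 to 377 (median 219) in STAT5Δ750 tumours, against 989, 1405 and 1469 in the glands. The highest tumour, at 424, was far below the lowest gland, at 989. The changes were -2.46 ± 0.53 (adjusted p = 0.00433) and -2.63 ± 0.54 (adjusted p = 0.00338), 5.5-fold and 6.21-fold lower. Slc3a2, the CD98 heavy chain, had 1135 to 1914.5 (median 1511) in STAT5ca and 1042 to 1954 (median 1532) in STAT5Δ750 tumours, against 675, 818 and 1099 in the glands, and rose by 0.74 ± 0.22 (adjusted p = 0.0263) and 0.78 ± 0.22 (adjusted p = 0.0224). Both Slc3a2 calls were lost with the actin covariate (adjusted p = 0.14 and 0.0517), and the STAT5ca call under quantile normalization (adjusted p = 0.0532). Its partner Slc7a5, the light chain LAT1, had 141 to 1604 (median 436) in STAT5ca and 444 to 1564 (median 831) in STAT5Δ750 tumours, against 165.3, 137 and 411 in the glands. All STAT5Δ750 tumours were above all glands for Slc7a5, but its changes of 0.80 ± 0.68 and 1.88 ± 0.70 did not pass (adjusted p = 0.436 and 0.0659). Without STAT5ca_177 the STAT5Δ750 change passed, at an adjusted p of 0.0448. Slc38a2, a sodium-coupled carrier of neutral amino acids, changed by 0.08 ± 0.22 and 0.41 ± 0.23, and Slc15a2, a peptide carrier, by 0.23 ± 0.56 and 0.26 ± 0.57, and neither passed. The other probe set of Slc15a2 gave 2.10 and 2.02 (adjusted p = 0.208 and 0.217). The remaining 13 of the 18 carriers of amino acids and amines did not pass either. For 1 of them, Slc7a6, the probe set used changed by -1.21 in STAT5ca and -0.06 in STAT5Δ750 tumours. Its other probe set changed by -1.21 and -0.58 and passed in STAT5ca tumours (adjusted p = 0.0383 and 0.301).

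Of the 9 sugar carriers, 2 fell in both tumour types. Slc2a3, the glucose carrier GLUT3, had 6.6 to 126 (median 29.3) in STAT5ca tumours and 21.9 to 154.5 (median 60.4) in STAT5Δ750 tumours, against 392.5, 412 and 242 in the glands. The change was -2.86 ± 0.61 in STAT5ca (adjusted p = 0.00406) and -2.34 ± 0.62 in STAT5Δ750 tumours (adjusted p = 0.0151). Slc2a3 could not have passed the level rule without the glands, so its changes are given as a description. The summed signal of 6 T cell markers was 26.7 to 351 in STAT5ca tumours, 41.2 to 624 in STAT5Δ750 tumours and 1528 to 2646 in glands, and its part in the fall was not tested. Slc37a4, which carries glucose 6-phosphate into the endoplasmic reticulum, had 114 to 204 (median 131) in STAT5ca and 102 to 267 (median 171.3) in STAT5Δ750 tumours, against 329.6, 518 and 279 in the glands. It fell by 1.32 and 1.14 (adjusted p = 0.00341 and 0.0101), with no overlap. Slc50a1, a sugar carrier of the Golgi and plasma membrane, changed by -0.82 ± 0.35 and -0.54 ± 0.36 (adjusted p = 0.115 and 0.3).

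Family 35 held 4 of the 8 rises in STAT5ca tumours. Slc35b2 brings PAPS, the sulphate donor for glycans, into the Golgi. Its signals were 306 to 816 (median 459.9) in STAT5ca tumours and 330.1 to 555 (median 410.3) in STAT5Δ750 tumours, against 155.5, 145 and 224 in the glands, and every tumour was above every gland. The rise was 1.39 ± 0.26 (adjusted p = 0.0017) and 1.21 ± 0.27 (adjusted p = 0.00546). Slc35a3, the Golgi carrier of UDP-N-acetylglucosamine, had 98.8 to 474 (median 262.5) in STAT5ca and 95 to 517 (median 205) in STAT5Δ750 tumours, against 77.9, 46.4 and 168 in the glands, with overlap in both types. It rose by 1.53 ± 0.49 in STAT5ca tumours (adjusted p = 0.0395), and changed by 1.22 ± 0.50 in STAT5Δ750 tumours (adjusted p = 0.0961). In STAT5ca tumours Slc35f5 rose by 0.77 and Slc35a4 by 0.51 (adjusted p = 0.0231 and 0.0277), and their STAT5Δ750 changes of 0.61 and 0.40 did not pass (adjusted p = 0.0668 and 0.0809). With the actin ratio as a covariate, Slc35b2 kept its call in both types, while the STAT5ca calls of Slc35a3, Slc35f5 and Slc35a4 were lost (adjusted p = 0.18, 0.058 and 0.103).

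Among metal carriers, Slc40a1, ferroportin, the exporter of iron, had 10.2 to 228 (median 103) in STAT5ca tumours and 70 to 365 (median 119.5) in STAT5Δ750 tumours, against 507, 324 and 443.5 in the glands. It fell by 4.57-fold, a change of -2.19 ± 0.67, in STAT5ca tumours (adjusted p = 0.0318), all of which lay below the glands. In STAT5Δ750 tumours the change of -1.53 ± 0.69 did not pass (adjusted p = 0.123). Slc39a11, a zinc carrier, rose by 0.87 ± 0.29 in STAT5ca tumours (adjusted p = 0.0481) and changed by 0.32 ± 0.30 in STAT5Δ750 tumours. The other 6 carriers of family 39 changed by between 0.37 and 0.61 in STAT5ca and between 0.24 and 1.10 in STAT5Δ750 tumours, and none passed. The actin covariate ended both STAT5ca calls (adjusted p = 0.199 for Slc40a1 and 0.385 for Slc39a11). The other probe set of Slc40a1 gave -1.41 in STAT5ca tumours (adjusted p = 0.112), and with the mean of its probe sets that call was lost (adjusted p = 0.0507). Slc31a1, the copper importer, changed by 0.90 ± 0.33 and 0.52 ± 0.33 (adjusted p = 0.0629 and 0.279). Its other probe set changed by 0.90 and 0.99 and passed in STAT5Δ750 tumours (adjusted p = 0.0654 and 0.046). The vesicle zinc carrier Slc30a4, which loads zinc for milk, changed by 0.36 ± 0.64 and 0.74 ± 0.65, with neither past the threshold.

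Calls among ion, lipid and vitamin carriers were few, and in STAT5ca tumours their balance turned with the scaling. The 12 lipid, vitamin and choline carriers had 1 rise and 1 fall there, 3 and 0 with a common median, 3 and 1 under quantile normalization and 3 and 2 without STAT5ca_177. The 10 inorganic ion carriers had 0 rises and 1 fall, and 1 and 1 with a common median or without STAT5ca_177. Slc24a3, an exchanger of sodium for calcium and potassium, had 9.9 to 135 (median 20.7) in STAT5ca tumours and 18.6 to 140.2 (median 28.1) in STAT5Δ750 tumours, against 287.5, 176 and 139.7 in the glands. Tumour STAT5Δ750_178 reached the lowest gland, and the other tumours did not. Slc24a3 could not have passed the level rule without the glands, so its changes are given as a description. It fell by 2.16 and 2.20 (adjusted p = 0.0309 and 0.0307), and both calls were lost with the actin covariate (adjusted p = 0.195 and 0.0816). Slc12a7, a potassium-chloride cotransporter, fell by 0.95 in STAT5Δ750 tumours (adjusted p = 0.0331). Slc44a2, a choline carrier, had 793 to 2508 (median 1309) in STAT5ca and 841.5 to 1896 (median 1214) in STAT5Δ750 tumours, against 2835, 3812 and 2475.5 in the glands, and fell by 1.24 and 1.27 (adjusted p = 0.0126 and 0.0124). Slc46a1, the proton-coupled folate carrier, passed the level rule through tumour arrays alone and rose by 1.10 ± 0.35 in STAT5ca tumours (adjusted p = 0.037) with signals of 76 to 193 (median 133), against 48.9, 39.8 and 80.4 in the glands, the lowest tumour signals among the STAT5ca rises. With the actin covariate the STAT5ca calls of Slc46a1 and Slc44a2 were lost (adjusted p = 0.206 and 0.109), and without 1 array that of Slc46a1 was lost in 6 of 16 fits, at up to 0.208. With a common median, the STAT5ca call of Slc44a2 and the STAT5Δ750 call of Slc12a7 were lost (adjusted p = 0.0778 and 0.0845). Of the carriers linked with milk, the phosphate carriers Slc20a1, Slc20a2 and Slc34a2 changed by 0.27, -0.23 and -0.74 in STAT5ca tumours and by 0.38, -0.13 and -1.01 in STAT5Δ750 tumours. Slc12a2, the sodium-potassium-chloride cotransporter, changed by -0.38 and 0.27, and none of these 4 passed. Other probe sets of Slc20a2 and Slc12a2 were higher and did not pass either. They gave 0.60 and 1.34 for Slc20a2 in STAT5ca and STAT5Δ750 tumours, and 0.66 and 1.77 or 0.15 and 1.34 for Slc12a2.

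**Figure D3:**
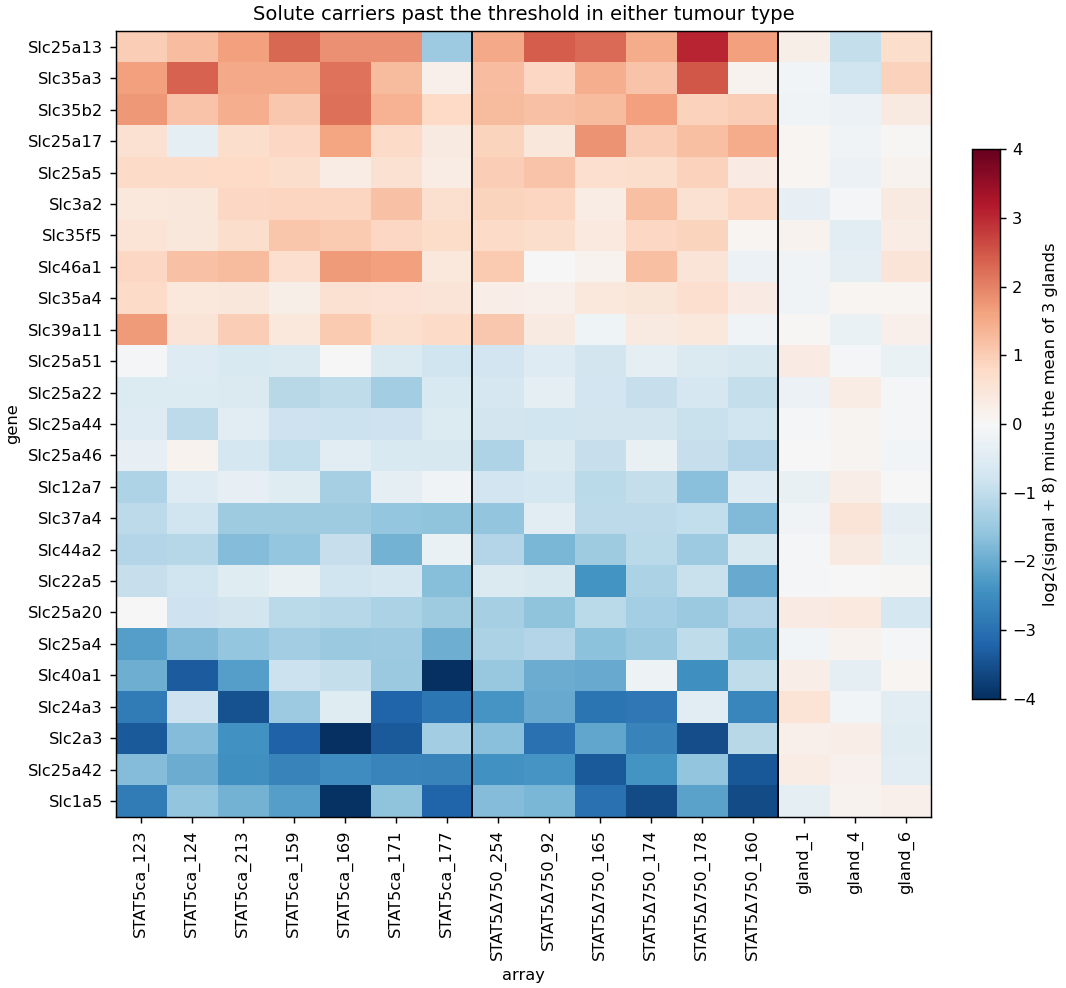
Log2(signal + 8) on each of 16 arrays minus the mean of the 3 glands, for the 25 solute carriers past the threshold in either tumour type, ordered by the STAT5Δ750 change. 10 genes are above the glands on average (red) and 15 below (blue), and the falls of Slc1a5, Slc25a42 and Slc2a3 are seen in every tumour.

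Of 22 transporters listed for their known roles in the mammary gland or in tumours, 15 passed the level rule. Slc3a2 rose in both tumour types, Slc1a5 fell in both and Slc40a1 fell in STAT5ca tumours, while the other 12 were not called in either. Slc5a5, the iodide carrier of lactation, Slc6a14, Slc7a11, Slc30a2 and Slc4a1 were below the level rule, and Slc25a1 and Slc36a2 had no probe set with a single symbol.

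Genes that work with the carriers were listed as well. Of 9 tested partners and pumps, Bsg, the chaperone of monocarboxylate carriers, rose by 1.09 ± 0.26 and 1.16 ± 0.27 in STAT5ca and STAT5Δ750 tumours (adjusted p = 0.00866 and 0.00718). Its signals were 1855 to 4322 and 2628 to 4668, against 1352 to 1718 in glands. Atp1b2 and Fxyd1, a subunit and a regulator of the sodium pump, fell by 4.89 and 4.57 in STAT5ca and by 3.30 and 4.18 in STAT5Δ750 tumours (adjusted p = 8.55e-05, 4.68e-06, 0.00273 and 2.03e-05). Their highest signals were 26.1 and 97.0 in STAT5ca and 168.2 and 131.1 in STAT5Δ750 tumours. Neither could have passed the level rule without the glands, so these changes are given as a description. The other 6 partners and pumps were not called. Of 10 tested genes of the amino acid response, Psat1, an enzyme of serine synthesis, rose by 1.62 ± 0.33 and 2.35 ± 0.34 (adjusted p = 0.00308 and 0.000288), and Asns, asparagine synthetase, by 1.56 ± 0.41 in STAT5Δ750 tumours (adjusted p = 0.0133). Of 9 other transporters, the water channel Aqp1 fell by 2.23 and 1.58 (adjusted p = 6.12e-05 and 0.00148), and 8 did not pass. The sum of 6 endothelial markers, cells known to hold Aqp1, was 314 to 1298 in STAT5ca tumours, 567 to 839 in STAT5Δ750 tumours and 1835 to 2377 in glands, and its part was not tested.

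Between STAT5ca and STAT5Δ750 tumours no solute carrier passed by limma, as no gene of the 7296 did (0% called), and the lowest adjusted p of any carrier was 0.811. At an unadjusted p under 0.05 there were 7 carriers, 6.14%, beside 414 genes, 5.67%. The differences of STAT5ca minus STAT5Δ750 ran from -1.89 for Slc6a15, a neutral amino acid carrier, to 1.01 for Slc5a1, the sodium-glucose cotransporter. The smallest p, 0.0083, was for Slc7a6, a partner of Slc3a2, with 30.4 to 181 (median 70.5) in STAT5ca and 58.9 to 289 (median 179.9) in STAT5Δ750 tumours, which overlap. Slc6a15, Slc5a1 and Slc7a6 were chosen after their values were seen.

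Solute carriers varied more among the tumours than among the glands. The median SD of log2 values was 0.58 over STAT5ca tumours, 0.51 over STAT5Δ750 tumours and 0.25 over glands, beside 0.52, 0.40 and 0.20 for all genes. Slc28a3, the concentrative nucleoside carrier, had 3.2 to 1882 (median 675) in STAT5ca and 20.7 to 1432 (median 734) in STAT5Δ750 tumours, against 331, 116 and 1139.5 in glands. Slc5a8, a sodium-coupled carrier of short fatty acids, ran from 5.4 to 954 (median 398) and from 60.7 to 1033.5 (median 170.9) in the tumour types, against 74.6, 15.3 and 78 in glands. Slc29a1, the equilibrative nucleoside carrier, ran from 144 to 3167 (median 611) and from 142 to 2604 (median 439), against 224, 238.5 and 460.5. None of these 3 passed against gland (adjusted p from 0.171 to 0.973).

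Tumour STAT5ca_177 stood at the edge of its group for many carriers. It had 2516 for Slc11a1, the metal carrier of phagosomes in macrophages, and 1471 for Slc15a3, a lysosomal peptide carrier. The other STAT5ca tumours had 35.6 to 115 and 56.1 to 149.9. Its macrophage marker sum of 25700 stood against 2176 to 6755 in the other STAT5ca tumours, 3204 to 6137 in STAT5Δ750 tumours and 7651 to 8470 in glands, and its part in these signals was not tested. It was low for Slc28a3, at 3.2, Slc5a8, at 5.4, and Slc44a3, at 8.9. Without it, all 19 calls remained in both comparisons, 13 further carriers were called in STAT5ca and 6 in STAT5Δ750 tumours. Calls over all genes rose too, from 579 higher and 874 lower to 1138 and 1164 of 7223 in STAT5ca tumours. In STAT5Δ750 tumours they rose from 647 and 947 to 1004 and 1215. Slc11a1 then fell by 1.47 in STAT5ca and 1.34 in STAT5Δ750 tumours (adjusted p = 0.00169 and 0.00364), and Slc5a8 rose by 2.92 in STAT5ca tumours (adjusted p = 0.011). In that fit Slc11a1 was above 135 only on gland arrays and Slc5a8 only on tumour arrays.

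**Figure D4:**
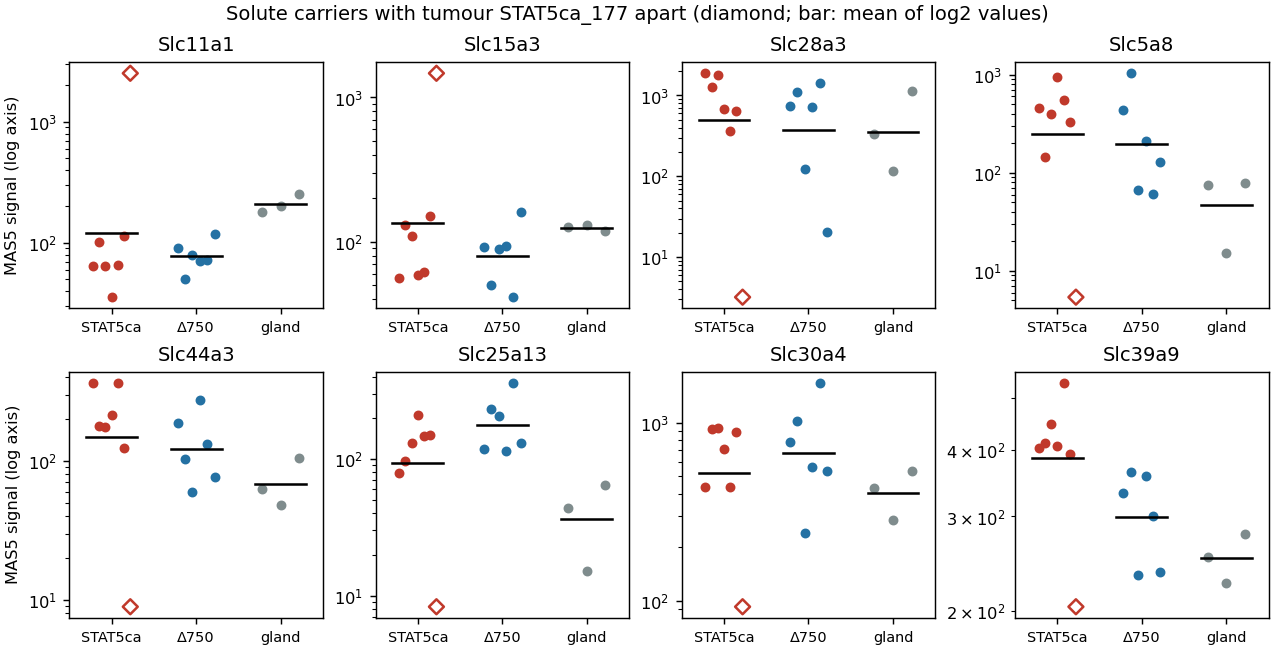
MAS5 signals (log axis) of 8 solute carriers for which tumour STAT5ca_177 (open diamond) stands apart from the other 6 STAT5ca tumours, with 6 STAT5Δ750 and 3 gland arrays; points are arrays and the bar is the mean of log2 values. The diamond is above its group for Slc11a1 and Slc15a3 and below it for the other 6 genes.

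The glands set much of the precision. Leaving out each array in turn, calls held in every fit for Slc1a5, Slc25a4, Slc2a3 and Slc35b2 in STAT5ca tumours and for Slc1a5, Slc25a4 and Slc25a44 in STAT5Δ750 tumours. Of these, Slc2a3 and Slc25a44 could not have passed the level rule without the glands. Without gland 4, 4 of 19 STAT5ca and 3 of 19 STAT5Δ750 calls remained, without gland 1, 7 and 7, and without gland 6, 12 and 10. The count of higher carriers in STAT5ca tumours, 8 over all arrays, was 1 without gland 1 or gland 4, 5 without gland 6 or STAT5ca_123, 4 without STAT5ca_213 or STAT5ca_171 and 17 without STAT5ca_177. The 11 lower ones were 6, 3 and 7 without gland 1, gland 4 and gland 6. In STAT5Δ750 tumours the 5 higher carriers were 2, 0 and 3 without gland 1, gland 4 and gland 6 and 3 without STAT5Δ750_165, and the 14 lower ones were 5, 3 and 7 without the 3 glands in the same order. With the actin ratio as a covariate, 8 STAT5ca and 15 STAT5Δ750 calls remained, among them both of Slc1a5, Slc25a4 and Slc35b2. Since every tumour had a higher ratio than every gland, a call lost or kept in that fit does not separate RNA quality from tissue.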

How the data were processed

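The deposited values were the authors' MAS5 signal intensity, 1 per probe set and array on a linear scale, for 22690 probe sets of the Affymetrix Mouse Genome 430A 2.0 array. MAS5 is named, without a version, per the submitters' processing notes, and further steps are not given in the sources used here; the trimmed mean was 250.1 on every array. Array medians ran from 57.3 to 90.7, and the number of arrays limits the precision. Groups were taken from sample titles. Of the probe sets, 20393 carried 1 gene symbol, 691 several and 1606 none here. Per gene, the single-symbol probe set with the highest mean was used, and genes with a signal above 135 on at least 3 of 16 arrays were tested, 7296 in all. Symbols were checked by gene identifier against RefSeq (GRCm38.p6), where all 114 carriers matched. All 3 groups entered a single limma fit (version 3.58.1, R 4.3.3) of log2(signal + 8), two-sided, with 13 residual and 2.5 prior degrees of freedom, with Benjamini-Hochberg adjustment over all genes and a threshold of 0.05. The procedure was tested on simulated data. Promoters came from RefSeq tables, and figures from matplotlib 3.10.9 in Python 3.11.15.

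The genes named are the 10 largest rises and falls per comparison, the 3 smallest adjusted p per class, listed mammary transporters, genes with an array apart from its group, members that differ between tumour types (none passed) and those beside the level rule; others are named as chosen after their values were seen. The members and lists were chosen with earlier results of these data known. Alternatives covered scaling, offset, level rule, probe sets, moderation, array weights, groups fitted, the actin ratio and leaving out arrays. Lists whose calls are not described above were erythroid (3 markers on the array, 0 tested), basal epithelial (5 tested, 2 and 1 lower) and milk genes (7 tested, 0 called). The basal marker Myh11, lower in both tumour types, was above 135 only on gland arrays.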

Additional observations from a re-analysis of the deposited data

Results flagged for a closer look

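In groups of 6 or 7 tumours, 20 values in 19 solute carriers lay far from the rest of their group by Dixon's criterion. It flags about 1 in 20 groups by chance, and 228 groups were tested. Of the 20 values, 12 were on STAT5ca_177.

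On STAT5ca_177, Slc11a1 was at 2515.7, against 35.6 to 114.6 in the other 6 STAT5ca tumours, Slc15a3 at 1471.2, against 56.1 to 149.9, and Slc41a3, a magnesium carrier, at 190.9, against 31.8 to 71.4. It was below its group for Slc22a23 at 16.2, Slc25a13 at 8.3, Slc28a3 at 3.2, Slc30a4 at 92.9, Slc39a9 at 203.3, Slc41a1 at 141.7, Slc44a3 at 8.9, Slc5a8 at 5.4 and Slc6a8, the creatine carrier, at 69.1. The lowest of the other STAT5ca tumours were at 125.0, 79.2, 366.5, 436.6, 393.4, 409.5, 123.7, 145.2 and 258.9 for these 9 genes in the same order. Slc27a2, a fatty acid carrier, was at 785.7 on STAT5ca_124, against 1.9 to 44.4, and Slc37a3 at 369.5 on STAT5ca_169, against 200.3 to 248.0.

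Among STAT5Δ750 tumours, STAT5Δ750_178 was high for Slc24a3 at 140.2, against 18.6 to 41.2, for Slc41a3 at 434.1, against 28.8 to 53.7, and for Slc39a7 at 951.8, against 661.7 to 720.0. Its muscle marker sum was 16370, against 371 to 4292 in the other STAT5Δ750 tumours; its part in these values was not tested. STAT5Δ750_160 was low for Slc15a2 at 413.6, against 1158.0 to 1729.3, and for Slc25a37 at 129.5, against 245.8 to 338.0. Slc12a9 was at 137.6 on STAT5Δ750_165, against 88.6 to 101.9.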

How the results depend on the processing

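The counts of called solute carriers depended on scaling, level rule, weights and glands. In STAT5ca tumours the 8 higher became 17 with arrays scaled to a common median, 30 with array quality weights, 3 with the 2 groups alone, 2 with the actin ratio and 1 to 17 without 1 array. Over all 7296 genes, the 579 higher became 1208, 2037, 380 and 144 in these settings and 139 to 1138 without 1 array. The 11 lower became 7, 27 and 7 with common-median scaling, weights and the actin ratio, 21 with a level rule of 35, 24 with none and 3 to 15 without 1 array. In STAT5Δ750 tumours the 5 higher became 22 with weights, 3 with the actin ratio and 0 to 7 without 1 array, the 0 without gland 4. The 14 lower became 26 with weights, 23 with a level rule of 35, 23 with none and 3 to 18 without 1 array. The 947 lower of all genes became 1889, 1304, 1387 and 268 to 1215. The cause was not tested, except that leaving out arrays leaves fewer samples. The common-median scaling moved the median of all genes to 0.31 and 0.14. Between tumour types 0 carriers were called in every setting run. For 57 named carriers, 3170 values were recomputed: 2927 kept sign and side of the threshold apart from 46 uncalled values of the other sign, 161 lost a call, 82 gained one and 0 called values changed sign. No paired analysis was possible because the groups share no replicate numbers.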

Other observations

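Some carriers were far higher in a few tumours than in glands. Slc6a15 was at 1201 and 1188 on STAT5Δ750_165 and STAT5Δ750_160, against 13.6 to 33.2 in glands, and at 401 on STAT5ca_123. Slc29a1 was at 3167 on STAT5ca_169 and 2604 on STAT5Δ750_174, against 224 to 461 in glands. Slc43a3, a carrier of purine bases, was at 2261, 1924 and 1779.5 on STAT5ca_124, STAT5ca_213 and STAT5ca_171 and at 1812 on STAT5Δ750_92, against 182 to 238 in glands. Slc12a2 reached 4747 on STAT5ca_169, against 1299 to 1584 in glands. These genes and tumours were chosen after their values were seen.

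For 34 carriers, 45 further probe sets passed the level rule. Their change had the opposite sign to the one used for 8 in STAT5ca and 9 in STAT5Δ750 tumours, and for 0 of these had the one used been called. Other probe sets of called genes kept the sign but did not all pass. Those short of the threshold were of Slc35a3, Slc35a4 and Slc40a1 and some of Slc25a5 in STAT5ca tumours, and of Slc25a51 in STAT5Δ750 tumours.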
